A study of Homo sapiens with 18 samples.

Results

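Serpins and the plasminogen activation system were examined in lung cancer cells before and after epithelial-mesenchymal transition (EMT). The genes were taken by name, as SERPIN genes of clades A to I together with PLAU, PLAUR, PLAT and PLG. Described are 35 of the 19849 genes in the expression table, 31 serpins and 4 genes of plasminogen activation. A single probe set stood for each gene, and levels are given on the log2 scale, so that a difference of 1 is a doubling.

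Serpins are protease inhibitors of a shared fold that act as a bait: the target protease cuts an exposed loop and is trapped in a covalent complex. Some members have no inhibitory role and serve as hormone carriers or chaperones. Plasminogen (PLG) is cut to the protease plasmin by the urokinase-type activator (PLAU) or the tissue-type activator (PLAT). The urokinase receptor (PLAUR) holds PLAU at the cell surface, and several serpins block the activators or plasmin. Cell-surface plasmin is known for its part in matrix breakdown and cell migration.

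RNA was measured on 18 arrays, 3 each of parental and of mesenchymal cells of A549, HCC827 and NCI-H358. All 3 are lines of human non-small cell lung cancer grown in the same medium, and HCC827 is EGFR-mutant. The mesenchymal cells of each line had received 2 ng/ml TGFβ for 3 weeks by the labels, whereas the study's methods give ranges of weeks that differ between the lines. TGFβ was withdrawn from these cells the day before lysis, and the parental cells had none. Each model is thus 1 established line, in which long TGFβ exposure and the mesenchymal state cannot be told apart. The replicates were separate biological samples prepared at the same time, so p values measure the spread between such samples only. Array medians lay between 6.31 and 6.47, and the standard deviation of log2 differences between arrays of 1 group was 0.163 to 0.282 over all genes. Of 6 epithelial markers, 3 fell in A549 and 6 in each other line, and of 6 markers of the mesenchymal state 3, 5 and 5 rose in A549, HCC827 and NCI-H358. Of 5 haematopoietic markers, CD14 and ITGAM fell in A549 and none was called in the other lines, of 4 endothelial markers KDR rose in NCI-H358, and of 3 hepatocyte markers none was called in any line.

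The promoters of PLAUR and SERPINB1 are shown because both genes changed in the same direction in all 3 lines. The sequences are those of RefSeq (build GRCh38.p14), the 250 bases before the start, read 5′ to 3′ on the gene's strand. That of PLAUR lies at chr19:43670170-43670419 and that of SERPINB1 at chr6:2841864-2842113, both on the minus strand. Capitals mark matches to the motifs CAGAC (SMAD), TGANTCA (AP-1) and CACCTG (the E-box of ZEB and SNAI factors), searched on both strands.
PLAUR: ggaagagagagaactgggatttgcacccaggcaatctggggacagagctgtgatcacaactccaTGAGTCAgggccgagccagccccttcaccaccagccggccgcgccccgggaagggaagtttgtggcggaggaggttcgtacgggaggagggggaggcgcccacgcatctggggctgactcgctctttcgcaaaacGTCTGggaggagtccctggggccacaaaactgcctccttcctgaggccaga
SERPINB1: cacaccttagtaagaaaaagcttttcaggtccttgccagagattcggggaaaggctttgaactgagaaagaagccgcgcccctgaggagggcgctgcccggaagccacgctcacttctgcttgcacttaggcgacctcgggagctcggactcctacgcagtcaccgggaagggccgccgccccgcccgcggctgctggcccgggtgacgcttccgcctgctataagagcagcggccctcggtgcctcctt
PLAUR held TGAGTCA at 186 to 180 bases before its start and GTCTG, the reverse complement of CAGAC, at 51 to 47 bases before it. SERPINB1 held none of the 3 motifs in its 300 bases, which include 50 after the start. Such short motifs also occur in many other promoters. Over all 35116 promoters of 300 bases in the table, 45.3% held CAGAC, 7.71% held TGANTCA and 20.6% held CACCTG. The 28 members with an entry had 43 promoters, of which 25 held CAGAC, 9 held TGANTCA and 11 held CACCTG. Some members have more than 1 of these promoters. By gene, 19 of the 28 held CAGAC, 8 held TGANTCA and 10 held CACCTG. Whether these shares differ from those of all promoters was not tested.

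The change upon EMT was estimated line by line with limma, from a model of the 6 groups fitted to every gene. A member was called when its Benjamini-Hochberg adjusted p, taken over all genes, was below 0.05 and its change above 2-fold. In A549, 7 of 35 members were called, where 8.02% of all genes were called, with 5 members higher in mesenchymal cells (4.15% of all genes) and 2 lower (3.87%). In HCC827, 11 members were called (11.5% of all genes), 5 higher (4.89%) and 6 lower (6.58%). In NCI-H358, 7 members were called (9.38% of all genes), 4 higher (3.96%) and 3 lower (5.42%). In at least 1 line, 16 members passed, against 19.4% of all genes. In all 3 lines and the same direction there were 2 members, against 1.67% of all genes. These were PLAUR, which was higher (0.761% of all genes), and SERPINB1, which was lower (0.907%). PLAT was also called in every line, but not in the same direction. Over the 35 members the log2 fold changes had medians of 0.04 (A549), 0.06 (HCC827) and 0.02 (NCI-H358), beside -0.02, 0.01 and 0.01 over all genes.

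**Figure D1:**
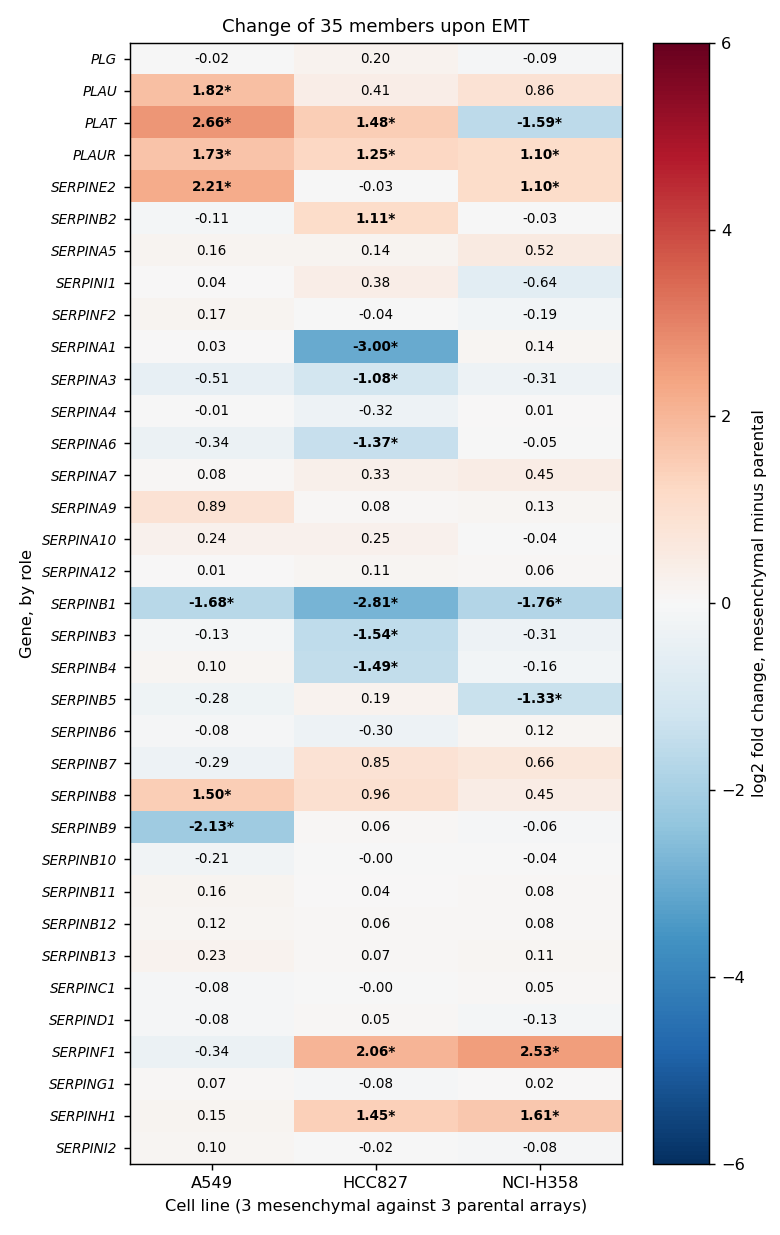
Log2 fold change (mesenchymal minus parental, 3 arrays against 3) of the 35 members, in rows ordered by role, in A549, HCC827 and NCI-H358; red is higher and blue lower in mesenchymal cells, and a star marks an adjusted p below 0.05 with a change above 2-fold. PLAUR was higher and SERPINB1 lower in all 3 lines, PLAT was higher in A549 and HCC827 and lower in NCI-H358, and 19 rows have no star.

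Of the genes that carry plasminogen activation itself, the urokinase receptor rose in every line. PLAT was called in opposite directions, and PLAU was called in 1 line. PLAUR in A549 lay at 8.88, 8.98 and 8.93 on the parental arrays and at 10.56, 10.76 and 10.65 on the mesenchymal arrays. In HCC827 it went from 9.50, 9.48 and 9.52 to 10.70, 10.67 and 10.88. In NCI-H358, where the parental level was highest, it went from 10.22, 10.32 and 10.39 to 11.43, 11.32 and 11.49. Every mesenchymal array stood above every parental array of its own line. As RNA was taken from whole cultures, a change in each cell and a change in the share of cells with the RNA cannot be told apart, here and below. A549 showed the largest increase, by 1.73 on the log2 scale (standard error 0.07, limma adjusted p = 4.8e-12), ahead of HCC827 with 1.25 (adjusted p = 2.33e-10) and NCI-H358 with 1.10 (adjusted p = 1.59e-09). The rise in A549 exceeded that in HCC827 by 0.47 (95% interval of the difference, HCC827 minus A549, -0.69 to -0.25, adjusted p = 0.00127), which is less than 2-fold.

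PLAU, the urokinase-type activator, was called in A549 only. There it went from 7.71, 7.63 and 7.87 to 9.33, 9.72 and 9.63, an increase of 1.82 with a standard error of 0.18 (limma adjusted p = 2.8e-07). Parental HCC827 arrays already read 9.56, 9.46 and 9.29 and mesenchymal ones 9.75, 9.63 and 10.15, a difference of 0.41 (adjusted p = 0.0783). In NCI-H358 the arrays read 8.25, 8.91 and 9.07 before and 9.73, 9.63 and 9.44 after EMT, a difference of 0.86 (adjusted p = 0.000851) that stayed below 2-fold. The 3 mesenchymal group means lay within 0.29 of each other, whereas the parental means spanned 1.70. The change in HCC827 was smaller than in A549 by 1.41 (limma adjusted p = 0.000222). The change in NCI-H358 differed from that in A549 by -0.96 (adjusted p = 0.00534), less than 2-fold. It differed from that in HCC827 by 0.45 (adjusted p = 0.191). In every line the mesenchymal PLAU arrays stood above the parental ones.

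PLAT, the tissue-type activator, rose in A549 and HCC827 and fell in NCI-H358. In A549 it read 5.96, 5.95 and 6.15 in parental and 8.55, 8.85 and 8.63 in mesenchymal cells, an increase of 2.66 (6.31-fold, limma adjusted p = 1.33e-11). In HCC827 it read 6.21, 5.86 and 5.71 before and 7.22, 7.47 and 7.53 after, an increase of 1.48 (adjusted p = 1.93e-08). In NCI-H358 the parental arrays, at 10.00, 9.99 and 10.22, stood above all other arrays, and the mesenchymal arrays read 8.52, 8.38 and 8.54, so that PLAT fell by 1.59 on the log2 scale (adjusted p = 9.98e-09). The change in NCI-H358 differed from that in A549 by -4.25 (limma adjusted p = 4.75e-12) and from that in HCC827 by -3.07 (adjusted p = 4.91e-10). The means of the 3 lines spanned 4.14 in parental and 1.27 in mesenchymal cells. Among mesenchymal cells the highest array of NCI-H358, at 8.54, lay next to the lowest of A549, at 8.55. PLG, the zymogen that both activators cut, read between 3.64 and 4.46 on the 18 arrays and was called in no line.

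**Figure D2:**
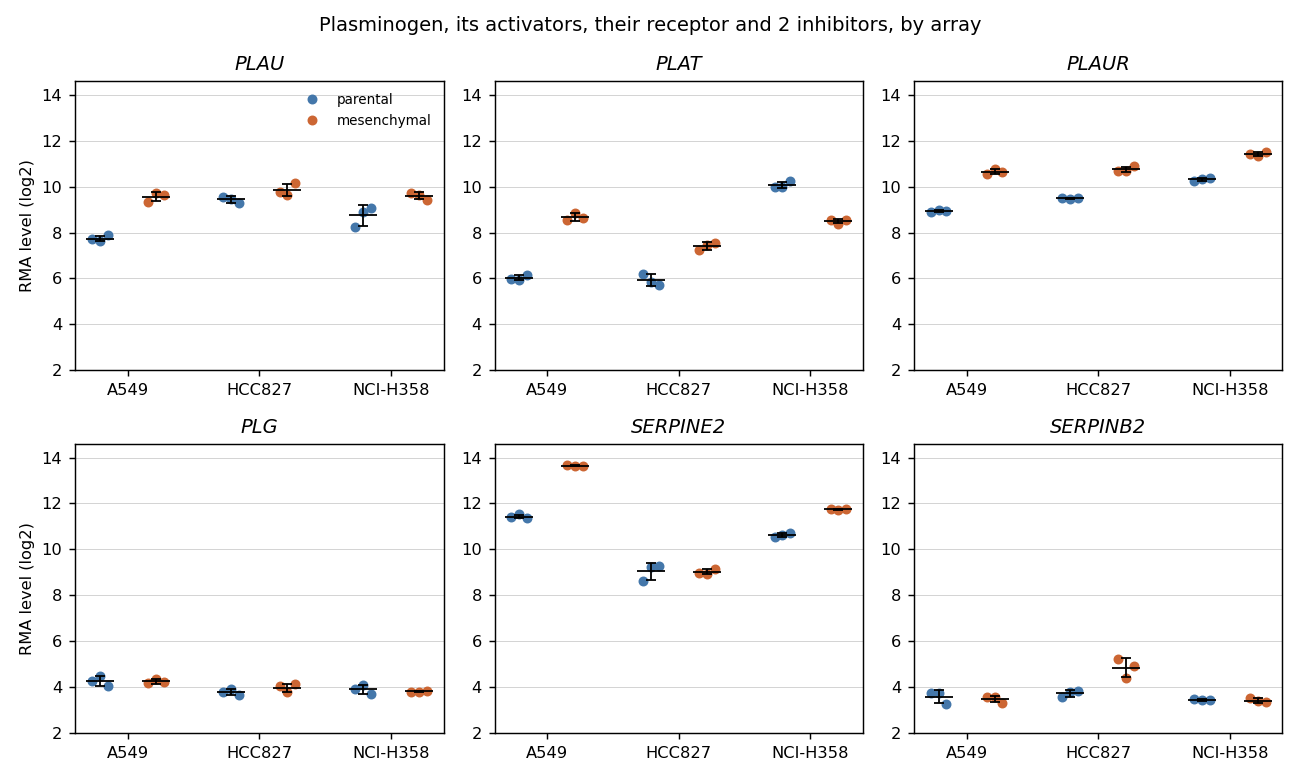
Log2 level on each array (vertical axis) of PLAU, PLAT, PLAUR, PLG, SERPINE2 and SERPINB2 in parental (blue) and mesenchymal (orange) cells of the 3 lines (horizontal axis); points are arrays, dashes group means and bars the SD of 3 arrays. PLAT fell from 10.07 to 8.48 in NCI-H358 alone, PLAUR rose in each line, PLG stayed low on every array, and SERPINE2 rose in A549 and NCI-H358.

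Serpins that act on the plasminogen activators or on plasmin moved in single lines or pairs of lines. SERPINE2 (protease nexin 1, a cell-bound inhibitor of thrombin and urokinase) read 11.41, 11.52 and 11.36 in parental and 13.65, 13.64 and 13.62 in mesenchymal A549 cells, an increase of 2.21 (4.62-fold, limma adjusted p = 1.97e-10). In NCI-H358 it went from 10.55, 10.64 and 10.70 to 11.75, 11.71 and 11.75, an increase of 1.10 (adjusted p = 1.15e-06). In HCC827 the arrays read 8.63, 9.24 and 9.28 before and 8.99, 8.93 and 9.14 after, overlapping ranges with a difference of -0.03 (95% interval -0.29 to 0.23). The change in HCC827 was below that of A549 by 2.24 (adjusted p = 1.94e-08) and below that of NCI-H358 by 1.14 (adjusted p = 5.97e-05).

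SERPINB2, an inhibitor of urokinase, was called in HCC827 only, with 3.57, 3.78 and 3.84 on the parental and 5.23, 4.40 and 4.90 on the mesenchymal arrays, an increase of 1.11 (limma adjusted p = 2.38e-05). Without mesenchymal replicate 1 of HCC827 the change was 0.92 and no longer above 2-fold. In the other lines its arrays read 3.27 to 3.76, near the low end of the table, whose lowest value is 2.05. SERPINA5 (protein C inhibitor), SERPINI1 (neuroserpin, an inhibitor of PLAT) and SERPINF2 (the inhibitor of plasmin) were called in no line. SERPINI1 differed by -0.64 in NCI-H358 and by 0.38 in HCC827, and the difference between these changes passed the test at -1.02 (adjusted p = 8.78e-05). Of the 5 inhibitors described from this group, 1 rose in each line, SERPINE2 in A549 and NCI-H358 and SERPINB2 in HCC827, and none fell. Shares over all genes in A549, HCC827 and NCI-H358 were 4.15%, 4.89% and 3.96% higher and 3.87%, 6.58% and 5.42% lower.

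Among the intracellular serpins of clade B other than SERPINB2, which guard cells against their own or incoming proteases, 1 of 12 rose and 2 fell in A549, 3 fell in HCC827 and 2 fell in NCI-H358. The falls in HCC827 were those of SERPINB1, SERPINB3 and SERPINB4. Over all genes the shares that fell in these lines were 3.87%, 6.58% and 5.42%, and those that rose were 4.15%, 4.89% and 3.96%. SERPINB1, an inhibitor of neutrophil elastase and related proteases, fell in every line. It read 11.08, 10.73 and 10.70 in parental and between 7.95 and 8.14 in mesenchymal HCC827 cells, a change of -2.81 (limma adjusted p = 1.8e-13). In A549 it went from 9.55, 9.43 and 9.42 to 7.68, 7.81 and 7.86 (-1.68, adjusted p = 1.73e-10), and in NCI-H358 from 10.48, 10.61 and 10.67 to 8.80, 8.80 and 8.89 (-1.76, adjusted p = 8.53e-11). No mesenchymal array of any line reached the lowest parental array of any line. The fall in HCC827 was larger than in A549 by 1.13 and than in NCI-H358 by 1.05 (adjusted p = 2.48e-06 and 7.13e-06).

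SERPINB9, the intracellular inhibitor of granzyme B, was a matter of 1 line. It read 10.14, 10.33 and 10.45 in parental and 8.13, 8.27 and 8.14 in mesenchymal A549 cells, a change of -2.13 (4.37-fold, limma adjusted p = 6.54e-10), and between 3.00 and 3.58 on all 12 arrays of the other lines. In the same A549 cells the haematopoietic markers CD14 and ITGAM fell by 1.36 and 1.82. The others were not called: on average CD68 read 6.14 before and 6.51 after EMT, and CD3E 5.49 and 5.52. PTPRC, which defines leukocytes, read 2.96 and 2.97, so low that a fall may not show. Whether these values bear on that of SERPINB9 was not tested. SERPINB8, an intracellular inhibitor of furin, rose in A549 from 6.03, 6.33 and 6.37 to 7.70, 7.60 and 7.93 (1.50, adjusted p = 3e-08). HCC827 and NCI-H358 had differences of 0.96 and 0.45 (adjusted p = 4.8e-06 and 0.00681), below 2-fold, although the groups did not overlap in any line.

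SERPINB5 (maspin), a serpin of epithelial cells without known protease-trapping activity, separated the lines more than the states. Its parental arrays read 3.70 to 4.26 in A549, 6.62 to 6.82 in HCC827 and 10.71 to 10.77 in NCI-H358. It fell in NCI-H358 only, to 9.53, 9.38 and 9.32 (-1.33, limma adjusted p = 2.77e-05), and differed by 0.19 in HCC827 (95% interval -0.22 to 0.61) and by -0.28 in A549. The level in A549 was so low that a fall may not show. SERPINB3 and SERPINB4, the squamous cell carcinoma antigens, are near-identical copies whose probe sets can share signal. Both stand in the counts of members as separate genes. In HCC827, SERPINB3 read 4.28, 5.52 and 4.76 before and 3.41, 3.20 and 3.33 after EMT (-1.54, adjusted p = 1.51e-05), and SERPINB4 fell by 1.49 (adjusted p = 2.06e-07). Both were low and not called in the other lines. SERPINB6, a cytosolic inhibitor found in many tissues, read 8.98 to 10.61 on the 18 arrays and was called in no line. SERPINB7 was higher by less than 2-fold in mesenchymal HCC827 (0.85, adjusted p = 0.000116) and NCI-H358 (0.66, adjusted p = 0.00152). SERPINB10, SERPINB11, SERPINB12 and SERPINB13 changed by at most 0.23 in size in any line and were not called.

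Secreted serpins of clade A other than SERPINA5, most of them plasma proteins made by the liver, were called only as falls in HCC827, for 3 of 8 members (6.58% of all genes fell in that line). SERPINA1, or alpha-1-antitrypsin, the main plasma inhibitor of neutrophil elastase, read 9.39, 8.79 and 8.72 in parental and 6.00, 5.98 and 5.90 in mesenchymal HCC827 cells, a change of -3.00 (8.02-fold, limma adjusted p = 2.92e-11). In A549 and NCI-H358 it read 2.80 to 3.29 on every array. The change in HCC827 differed from that in A549 by -3.03 (adjusted p = 4.69e-09). SERPINA6, the cortisol carrier of plasma, fell by 1.37 in HCC827 (adjusted p = 4.76e-08). SERPINA3, or alpha-1-antichymotrypsin, fell by 1.08 there (adjusted p = 2.14e-06), a change of 0.98 in size, under 2-fold, without mesenchymal replicate 2 of HCC827. In A549, SERPINA3 and SERPINA6 differed by -0.51 and -0.34 (adjusted p = 0.00428 and 0.0298), below 2-fold and with no overlap of the groups. The SERPINA3 change in HCC827 differed from those in A549 and NCI-H358 by less than 2-fold (1.49-fold and 1.71-fold). SERPINA9 was higher by 0.89 in A549 (adjusted p = 2.42e-06), the largest difference among the 19 members called in no line. SERPINA4, SERPINA7, SERPINA10 and SERPINA12 were among these 19 as well.

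Of 6 further serpins of clades C, D, F, G, H and I (SERPINC1, SERPIND1, SERPINF1, SERPING1, SERPINH1 and SERPINI2), SERPINF1 and SERPINH1 rose in both HCC827 and NCI-H358, and none was called in A549. Among all genes 4.89% rose in HCC827 and 3.96% in NCI-H358, and 8.02% were called in A549. SERPINF1 (pigment epithelium-derived factor), a secreted serpin known for restraining blood vessel growth, read 4.81, 5.25 and 5.28 in parental and 7.51, 7.30 and 8.12 in mesenchymal NCI-H358 cells, an increase of 2.53 (5.76-fold, limma adjusted p = 6.52e-09). In HCC827 it went from 4.56, 4.68 and 4.60 to 6.64, 6.39 and 6.99 (2.06, adjusted p = 6.9e-08). In A549 it read 5.84, 5.68 and 5.51 before and 5.42, 5.44 and 5.15 after (-0.34, adjusted p = 0.162). SERPINH1, the collagen chaperone of the endoplasmic reticulum, went from 7.69, 7.63 and 7.54 to 9.19, 8.95 and 9.08 in HCC827 (1.45, adjusted p = 7.13e-11) and from 9.54, 9.69 and 9.70 to 11.31, 11.25 and 11.21 in NCI-H358 (1.61, adjusted p = 2.39e-11). In A549 its arrays overlapped, with a difference of 0.15 (95% interval -0.02 to 0.31). The changes of HCC827 and NCI-H358 exceeded that of A549 by 2.40 and 2.87 for SERPINF1 and by 1.30 and 1.46 for SERPINH1 (largest adjusted p = 1.21e-06). Between HCC827 and NCI-H358 the changes differed by 0.46 for SERPINF1 (95% interval -0.10 to 1.03) and by 0.16 for SERPINH1 (-0.07 to 0.39). SERPINC1 (antithrombin), SERPIND1 (heparin cofactor II), SERPING1 (the C1 inhibitor) and SERPINI2 changed by at most 0.13 in size in any line.

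**Figure D3:**
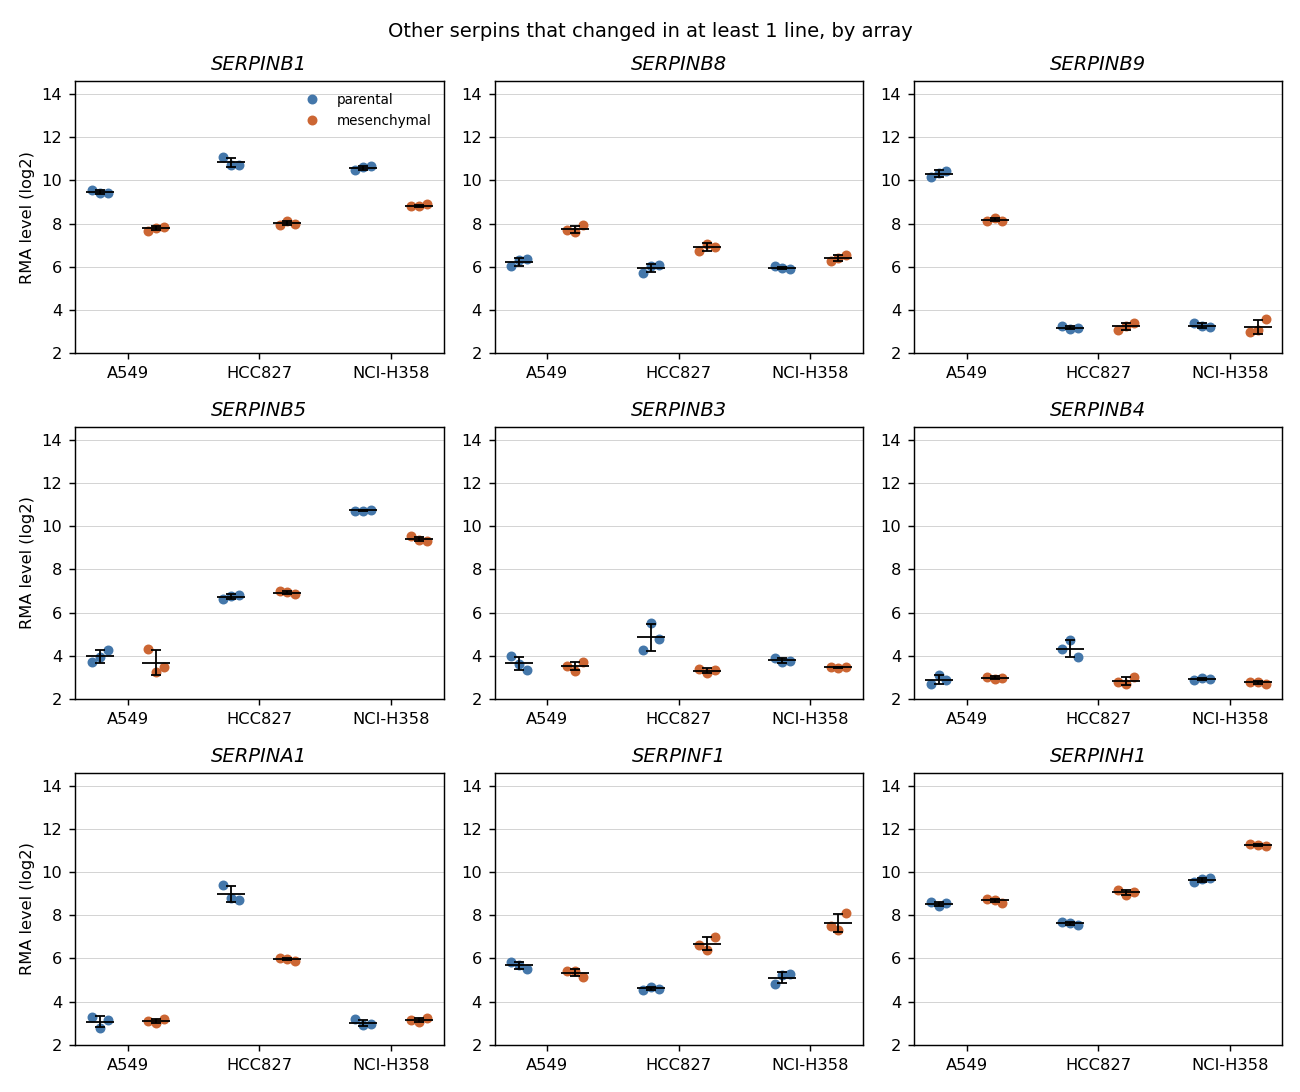
Log2 level on each array (vertical axis) of 9 other serpins in parental (blue) and mesenchymal (orange) cells of the 3 lines (horizontal axis); points are arrays, dashes group means and bars the SD of 3 arrays. SERPINB1 fell in each line, SERPINB9 fell from 10.31 to 8.18 in A549 and read 3.28 or less on average elsewhere, SERPINA1 fell from 8.96 to 5.96 in HCC827, and SERPINF1 and SERPINH1 rose in HCC827 and NCI-H358.

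Many of the members responded unequally, and the lines also differed before EMT. The change upon EMT differed between HCC827 and A549 for 13 members (13.4% of all genes), between NCI-H358 and A549 for 7 (12.7%) and between NCI-H358 and HCC827 for 10 (11%), at an adjusted p below 0.05 and a difference above 2-fold. Between parental cells, 13 members differed for HCC827 against A549 (18.8% of all genes), 8 for NCI-H358 against A549 (20.4%) and 11 for NCI-H358 against HCC827 (15.2%). The largest parental differences from A549 were those of SERPINB9, by -7.12 in HCC827 and -7.02 in NCI-H358, of SERPINB5, by 6.76 in NCI-H358, and of SERPINA1, by 5.88 in HCC827 (largest adjusted p = 1e-14). SERPINI1 was higher in parental NCI-H358 than in parental A549 cells by 2.77 (adjusted p = 1.2e-12). For 20 of the 35 members the 3 parental means spanned more than the 3 mesenchymal means. No share over all genes was taken for this count. Some of the spans were small, as for SERPINB10 with 0.20 in parental and 0.07 in mesenchymal cells. SERPINE2 spanned 2.38 in parental and 4.62 in mesenchymal cells, and SERPINF1 1.07 and 2.31.

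With the thresholds of the study, an adjusted p below 1e-05 and a change above 5-fold, fewer members passed. They were PLAT in A549 (1.90% of all genes called), SERPINA1 and SERPINB1 in HCC827 (2.95%) and SERPINF1 in NCI-H358 (2.17%). None of the 35 passed in all 3 lines, against 0.242% of all genes.

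Several members lie close to each other in the genome. Among the protein-coding genes of the RefSeq gene table (GRCh38.p14), 8 clade A serpins stand in a row from SERPINA10 to SERPINA3 with 1 other gene among them, between SERPINA1 and SERPINA9. A row of 10 clade B serpins from SERPINB5 to SERPINB8 also holds 1 other gene, between SERPINB10 and SERPINB8, and SERPINB1, SERPINB9 and SERPINB6 follow each other with none. Neighbours did not all move together. In HCC827, SERPINA1 and SERPINA6 fell while SERPINA9, the next member of the row, differed by 0.08. SERPINB9 and SERPINB1 both fell in A549. In HCC827 SERPINB1 fell, while SERPINB9 was at 3.19 before EMT, so low that a fall may not show. SERPINB3 and SERPINB4, which stand next to each other and whose probe sets can share signal, both fell in HCC827. SERPINF1 rose in HCC827 and NCI-H358, and its neighbour SERPINF2 differed by -0.04 and -0.19.

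The surroundings of the system were described with 4 lists of related genes. Their counts stand beside shares over all genes of 4.15% higher and 3.87% lower for A549, 4.89% higher and 6.58% lower for HCC827, and 3.96% higher and 5.42% lower for NCI-H358. Of 17 uptake receptors and partners of the urokinase receptor, 3 rose and 3 fell in A549, 4 rose and 1 fell in HCC827, and 3 rose and 2 fell in NCI-H358. MRC2, a collagen uptake receptor that binds the urokinase receptor complex, rose in all 3 lines by 1.38, 3.45 and 2.53 in A549, HCC827 and NCI-H358 (largest limma adjusted p = 1.66e-08). ITGB3, the beta chain of a vitronectin receptor, rose by 2.39, 2.87 and 1.85 (largest adjusted p = 3.96e-07). SORL1, a sorting receptor that can take up urokinase complexes, fell by 1.10, 2.71 and 1.94 (largest adjusted p = 4.1e-06). ITGA5, a chain of the fibronectin receptor, rose by 2.70 in HCC827 and 2.23 in NCI-H358, and the sorting receptor SORT1 fell by 2.49 in NCI-H358. Of 5 surface proteins that bind plasminogen, none was called in A549, and the keratin KRT8, also an epithelial marker, was the 1 lower gene in each other line.

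Of 31 coagulation and fibrinolysis factors, 2 rose and 6 fell in A549 (4.15% and 3.87% of all genes), 6 fell in HCC827 (6.58%), and 4 rose and 3 fell in NCI-H358 (3.96% and 5.42%). TFPI, the inhibitor of the tissue factor pathway, fell in all 3 lines by 1.98, 1.20 and 1.47 (largest limma adjusted p = 6.27e-05). The fibrinogen chains FGB and FGG, the clot protein that plasmin dissolves, fell by 4.29 and 3.71 in A549 and by 6.81 and 4.70 in HCC827, and were low in NCI-H358 in both states, at 3.86 to 4.48 on average. FGA fell by 2.49 in A549. TFPI2, an inhibitor of plasmin of the Kunitz type, rose by 1.98 in A549 and 2.45 in NCI-H358 and differed by -0.37 in HCC827. In NCI-H358 the thrombin receptors F2R and F2RL2 rose by 2.44 and 5.54 and F5 fell by 3.65. F2RL2 fell by 1.59 in A549 (adjusted p = 1.68e-06). Of 25 target proteases of serpins, none was called in A549, 1 rose and 3 fell in HCC827 and 2 fell in NCI-H358, where 8.02%, 11.5% and 9.38% of all genes were called in either direction. The 2 in NCI-H358 were ST14, or matriptase, a membrane protease of epithelia, and CASP1, which fell by 3.66 and 2.61. In HCC827 ST14 fell by 3.57 and CASP1 by 1.45, and in A549 ST14 averaged 3.87 and 4.04.

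**Figure D4:**
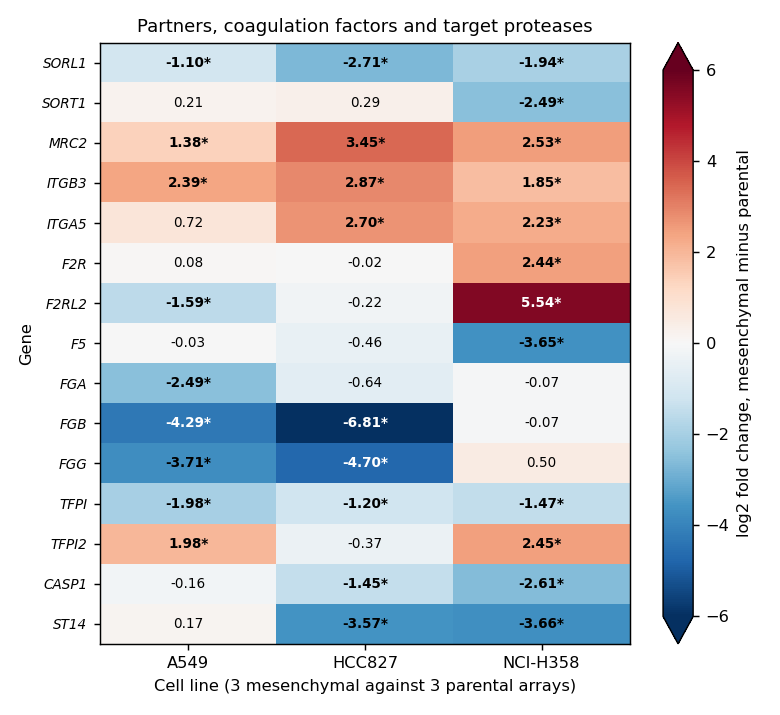
Log2 fold change (mesenchymal minus parental, 3 arrays against 3) of 15 genes from the lists of uptake receptors and partners, coagulation factors and target proteases, in A549, HCC827 and NCI-H358; red is higher and blue lower in mesenchymal cells, and a star marks an adjusted p below 0.05 with a change above 2-fold. MRC2 and ITGB3 were higher and SORL1 and TFPI lower in all 3 lines, FGB and FGG fell in A549 and HCC827, and F2RL2 rose by 5.54 in NCI-H358 and fell by 1.59 in A549.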

How the data were processed

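Total RNA of 18 samples was hybridized to Affymetrix U133 Plus 2.0 arrays. RMA was applied by the authors, and the deposited log2 values cover 19849 genes with 1 probe set each. How that probe set was picked is not given in the sources used here, and the table has no detection calls. Columns were matched to samples by title, with 0 left over, and replicates were numbered in accession order.

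The members and gene lists were chosen with earlier results of these data known. All genes were fitted with limma 3.58.1 in R 4.3.3 (lmFit, eBayes) in 1 model of 6 groups with no covariate, and p values were adjusted by Benjamini-Hochberg over all genes. Calls needed an adjusted p below 0.05 and a change above 2-fold. Differences of the change between lines and between parental lines were contrasts of the same fit. Precision is limited by 3 arrays per group, and an exact permutation test of 3 against 3 cannot go below 0.1 two-sided. In a test on simulated data for the A549 comparison, 200 of 200 genes changed 4-fold among 19849 were recovered with 0 false calls. The simulated noise was independent and normal, without differences between lines. That test checks the calculation only and does not show how well changes near 2-fold are found.

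Array values were to be given for the activation system and for members past 5-fold and an adjusted p of 1e-05 in any line, other called members were to be named with their changes, and list genes were named when called in all 3 lines in the same direction or past the stricter thresholds in 1. Array values of SERPINB3, SERPINB8, SERPINB9, SERPINB5 and SERPINH1, changes of members not called, and KRT8, CD14, ITGAM, CD68, CD3E, PTPRC and KDR were added after values were seen. The naming rule takes 1 further gene, which is not reported here. All 35 members were found in the RefSeq gene table by gene ID, and 28 in its promoter table. Protein sequences were not used here. The alternatives were other thresholds, an intensity trend, robust estimation, a filter on dim probe sets (25th percentile), centring of arrays, a separate fit per line, the methods' t-test, each array left out in turn and, added after seeing the data, the 3 lowest-numbered arrays left out together.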

Additional observations from a re-analysis of the deposited data

Results flagged for a closer look

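The change upon EMT was compared between lines for each of the 35 members, 105 differences in all. Of these, 30 passed at a limma adjusted p below 0.05 and above 2-fold. Over all genes, 13.4% passed for HCC827 minus A549, 12.7% for NCI-H358 minus A549 and 11% for NCI-H358 minus HCC827. Each value is the log2 fold change in the first line minus that in the second. Comparisons that share a line share its arrays.

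For HCC827 minus A549, the difference was 2.40 for SERPINF1, 2.18 for SERPINB9, 1.30 for SERPINH1, 1.22 for SERPINB2 and 1.14 for SERPINB7. It was -3.03 for SERPINA1, -2.24 for SERPINE2, -1.59 for SERPINB4, -1.41 for SERPINB3 and for PLAU, -1.17 for PLAT, -1.13 for SERPINB1 and -1.02 for SERPINA6. SERPINB9 had fallen in A549 and was low in HCC827 in both states. SERPINA1, SERPINB3 and SERPINB4 had fallen in HCC827 and were low in A549 and NCI-H358 in both states. At such low levels a fall may not show.

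For NCI-H358 minus A549, the difference was 2.87 for SERPINF1, 2.07 for SERPINB9 and 1.46 for SERPINH1. It was -4.25 for PLAT, -1.10 for SERPINE2 and -1.05 for SERPINB5 and SERPINB8. SERPINB9 in NCI-H358 and SERPINB5 in A549 were low in both states, so that a fall there may not show.

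For NCI-H358 minus HCC827, the difference was 3.14 for SERPINA1, 1.33 for SERPINB4, 1.32 for SERPINA6, 1.23 for SERPINB3, 1.14 for SERPINE2 and 1.05 for SERPINB1. It was -3.07 for PLAT, -1.52 for SERPINB5, -1.14 for SERPINB2 and -1.02 for SERPINI1. The adjusted p of the 30 differences ranged from 4.75e-12 for PLAT (NCI-H358 minus A549) to 0.00557 for SERPINB5 (NCI-H358 minus A549). With 3 arrays per group, single arrays were not screened as outliers.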

How the results depend on the processing

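Each count of called members was recomputed under the alternatives. With no threshold on the fold change, 17 and 13 members were called in HCC827 and NCI-H358, 13 differed in their change between NCI-H358 and A549, and between parental cells 20 differed for HCC827 against A549, 13 for NCI-H358 against A549 and 18 for NCI-H358 against HCC827. Above 4-fold, 3, 3 and 1 members were called in A549, HCC827 and NCI-H358, 4, 3 and 2 differed in their change for HCC827 against A549, NCI-H358 against A549 and NCI-H358 against HCC827, 4, 4 and 4 differed between the parental lines in the same order, and 0 were called in all 3 lines. With the study's thresholds the counts were 1, 2 and 1, then 2, 2 and 2, then 4, 4 and 3, and 0. With dim probe sets left out (22 of 35 members, 21 of the 25 called changes and 14887 genes kept, without SERPINA1, SERPINB2, SERPINB3 and SERPINB4), 7 members were called in HCC827 and 6 differed in their change between NCI-H358 and HCC827. All other counts under these settings, and those under the intensity trend, robust estimation, centring, separate fits and the methods' t-test, stayed within 1.5 times the main count. With 1 array left out at a time, 7 to 7 members were called in A549, 10 to 12 in HCC827 and 7 to 8 in NCI-H358, the differences of the change numbered 12 to 13, 5 to 9 and 9 to 10, the parental differences 11 to 13, 7 to 8 and 10 to 12, and the members called in all 3 lines 2 to 2. Of the 25 called changes of single members, none reversed under a setting that gave it a value, and 148 of 150 values with 1 array left out kept their call. The 2 that did not were SERPINB2 in HCC827 without mesenchymal replicate 1 (0.92) and SERPINA3 in HCC827 without mesenchymal replicate 2 (-0.98). Above 4-fold, 18 of the 25 no longer passed, and 21 with the study's thresholds. The array numbers of parental replicate 1 of each line stand before the rest, and the labels give no batch. Without these 3 arrays, an alternative chosen after seeing the data, 7, 11 and 7 members were called in A549, HCC827 and NCI-H358, and all 25 called changes kept their call. Centring moved the median change of all genes by at most 0.07. No paired analysis was possible because the labels carry no replicate numbers. Precision is limited by 3 arrays per group, and for members with low signal a change below the background of the array cannot be seen.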

Other observations

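F3, the gene of tissue factor, was chosen after values were seen, because its change opposed that of its inhibitor TFPI in 1 line. In A549, F3 rose from 6.06 ± 0.28 (SD, n = 3 arrays) to 8.09 ± 0.15, an increase of 2.03 (limma adjusted p = 2.25e-08). In HCC827 and NCI-H358 it fell by 1.90 and 1.47 (adjusted p = 3.57e-08 and 1.08e-06), from parental levels of 11.86 and 10.03. The change in A549 differed from that in HCC827 (HCC827 minus A549, -3.93, adjusted p = 5.68e-10) and from that in NCI-H358 (NCI-H358 minus A549, -3.50, adjusted p = 2.33e-09). The mesenchymal means of the 3 lines were 8.09, 9.96 and 8.56.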
